A study of Homo sapiens with 18 samples.

Results

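The 9 genes described here are NEUROG1, NEUROG2, NEUROD1, NEUROD4, NHLH1, INSM1, EOMES, HES6 and DLL1, a named list of factors that act as neural progenitors turn into neurons. Each was found by its symbol in the deposited read counts and TPM values (a level scaled for gene length and library size), so 9 of 53853 genes in the table were taken and 0 were missing. The members were chosen by name, with their counts and fold changes in all 18 libraries already known. Fold changes and p-values of its members therefore describe these libraries and are not independent evidence.

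The libraries were made from polyA RNA of organoids, neural tissues grown in suspension, that had been patterned toward ventral forebrain. The organoids came from 1 line, H9 human embryonic stem cells, and from day 10 received 100 ng/mL SHH, the ventralizing morphogen, with 1 µM purmorphamine, an agonist of its pathway. The study asked what repeated dopamine or cocaine does to transcripts and whether reactive oxygen species (ROS) take part. Dosing started on day 83 and went on daily for 1 week, with medium exchanged 1 h after each dose. The groups, of 3 libraries each, were 1 µM dopamine, 1 µM cocaine, dopamine with a ROS inhibitor, cocaine with the inhibitor, vehicle with the inhibitor (control + inhibitor) and vehicle alone (control). All 6 groups received 100 µM ascorbic acid, itself an antioxidant, as the vehicle. The inhibitor was 100 µM acetylcysteine, a thiol antioxidant. No label says whether libraries of 1 group came from different cultures. The tests thus weigh differences against a spread that may be purely technical.

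Neurogenins are basic helix-loop-helix (bHLH) factors that pair with E proteins, bind DNA at the E-box and start neuronal differentiation. They switch on later bHLH factors such as NEUROD4 and NHLH1 and the Notch ligand DLL1, which holds neighbouring cells in the progenitor state through HES repressors. In the mouse telencephalon NEUROG2 acts chiefly in the dorsal part, where EOMES marks intermediate progenitors.

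Promoter sequence was available from RefSeq (GRCh38.p14) for 7 of the 9 genes, with no entry for INSM1 or DLL1. Sequences of 4 are printed to show the pair of neurogenins, which varied most between libraries, beside the later bHLH genes NEUROD4 and NHLH1. Each run gives the 250 bases before the annotated start on the gene's strand. Capitals mark every CANNTG, the E-box, which reads alike on both strands.
NEUROG1: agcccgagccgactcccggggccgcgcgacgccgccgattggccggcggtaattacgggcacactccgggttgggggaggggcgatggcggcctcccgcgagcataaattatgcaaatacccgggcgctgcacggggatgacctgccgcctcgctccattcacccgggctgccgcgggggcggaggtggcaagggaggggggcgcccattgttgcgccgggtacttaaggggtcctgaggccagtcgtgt
NEUROG2: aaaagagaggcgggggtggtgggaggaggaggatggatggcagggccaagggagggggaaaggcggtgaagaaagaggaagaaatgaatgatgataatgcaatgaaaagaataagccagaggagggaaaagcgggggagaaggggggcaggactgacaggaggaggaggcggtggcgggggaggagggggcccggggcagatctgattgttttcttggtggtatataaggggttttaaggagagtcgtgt
NEUROD4: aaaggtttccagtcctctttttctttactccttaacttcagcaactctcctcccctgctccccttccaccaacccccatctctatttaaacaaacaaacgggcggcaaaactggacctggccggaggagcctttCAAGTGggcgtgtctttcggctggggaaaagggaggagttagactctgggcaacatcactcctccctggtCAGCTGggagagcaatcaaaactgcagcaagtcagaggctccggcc
NHLH1: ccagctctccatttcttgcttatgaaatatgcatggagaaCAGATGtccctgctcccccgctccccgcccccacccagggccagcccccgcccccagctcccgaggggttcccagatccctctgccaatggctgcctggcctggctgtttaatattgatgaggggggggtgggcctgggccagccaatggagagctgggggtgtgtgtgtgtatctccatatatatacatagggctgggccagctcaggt
The windows lie at chr5:135535965-135536214 (minus strand), chr4:112516181-112516430 (minus strand), chr12:55019724-55019973 (plus strand) and chr1:160366821-160367070 (plus strand) for NEUROG1, NEUROG2, NEUROD4 and NHLH1. CANNTG was absent from the windows of NEUROG1, NEUROG2 and NEUROD1. NEUROD4 held CAAGTG 116 bases and CAGCTG 46 bases before the start, and NHLH1 held CAGATG 210 bases before it. HES6 held CAGCTG at 158 bases. EOMES held CAGGTG 109 bases before the RefSeq start used for its window. That window (chr3:27722324-27722573, minus strand) lies inside the RefSeq span of the gene, so it does not precede the whole gene. CANNTG occurred in 62.2% of 27305 promoter windows of the same length, CAGCTG in 13.8% and CAGATG in 12.2%, searched on both strands, and CAGCTG and CAGATG are forms of CANNTG. The HES-type N-box CACNAG (32.0% of windows) and the RBPJ motif GTGGGAA (5.46%) were in none of the 7 windows. A match describes letters only and shows no binding.

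NEUROG1 spans chr5:135534282-135535964 and has 1 exon in its canonical GENCODE transcript, and NEUROG2 spans chr4:112513516-112516180 with 2 exons. NEUROD1 (chr2:181668295-181680517), NEUROD4 (chr12:55019974-55030017) and NHLH1 (chr1:160367071-160372846) have 2 exons each. INSM1 (chr20:20368104-20370949) has 1, EOMES (chr3:27715953-27722713) 6, HES6 (chr2:238238267-238240038) 4 and DLL1 (chr6:170282206-170291078) 11.

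Total reads ran from 23789195 to 30327891 per library. All 9 genes were among the 18913 that passed the filter on low counts. Across genes, cocaine against control gave 818 calls at an adjusted p under 0.05, which is 4.33% of genes tested, and this count hung on single libraries. It was 0 without cocaine library 3, control library 1 or control library 2, 1 without cocaine library 2, 226 without control library 3 and 1121 without cocaine library 1. GAD1 and SLC32A1, which make and load GABA, averaged 236 and 112 TPM. The ventral forebrain factors DLX1, DLX6, DLX2, DLX5 and GSX2 averaged 50.3, 21.5, 13.4, 11.4 and 5.07 TPM. The medial ventral forebrain factors NKX2-1 and LHX6 averaged 1.14 and 0.682 TPM, and LHX8 reached at most 0.08 TPM. The hindbrain and neck-level genes HOXB3 and HOXA3 averaged 16.1 and 13.9 TPM. Transcripts of GABA neurons were thus abundant and those of DLX genes were present. The medial ventral forebrain factors were low, and posterior transcripts were present.

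Levels per length differed widely among the 9 genes. HES6 was highest, with 192 to 280 TPM over the 18 libraries, followed by DLL1 with 53.3 to 83.9 TPM. NEUROG2 spanned 12.5 to 218 TPM, INSM1 36.9 to 114 TPM and NHLH1 25.5 to 103 TPM, ranges that overlapped that of DLL1. NEUROD1 lay between 17.1 and 38.9 TPM, NEUROD4 between 4.11 and 20.1 TPM, and NEUROG1 between 0.68 and 15.8 TPM. EOMES, the defining transcript of cortical intermediate progenitors, was at 0.34 to 1.2 TPM, from 9 to 34 reads per library. TBR1, which follows EOMES in dorsal cortical neurons, was likewise low at 0.25 to 1.9 TPM. For the cortical kind, the data go against the intermediate progenitor label in the list's name, since its defining marker EOMES was near absent. Other list members, such as INSM1 and HES6, were at far higher levels, so EOMES alone does not settle the label for other progenitors.

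The neurogenins were highest in cocaine libraries. In CPM (reads scaled to a common library size), NEUROG2 measured 50.2, 65.2 and 131 CPM in cocaine organoids, against 10.1, 48.7 and 14.4 CPM in control organoids. With the inhibitor it measured 143, 33.2 and 71.2 CPM in cocaine organoids, against 7.93, 12.3 and 10.8 CPM in controls. Both pairs of groups stood apart, but without the inhibitor only by the gap between 50.2 CPM in cocaine library 1 and 48.7 CPM in control library 2. NEUROG2 was 34.7, 15.3 and 12.1 CPM with dopamine, inside the control range. With dopamine and inhibitor it was 7.94, 18.2 and 25.3 CPM, of which the first lay inside the range of control + inhibitor and the others above it.

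NEUROG1, the lower of the neurogenins, measured 1.65, 3.23 and 7.62 CPM in cocaine organoids, against 1.09, 1.85 and 0.939 CPM in control organoids. With the inhibitor it measured 6.42, 0.593 and 4.13 CPM in cocaine organoids, against 0.637, 0.39 and 0.309 CPM in controls. Both comparisons overlapped, through cocaine library 1 in the first and cocaine + inhibitor library 2 in the second, where NEUROG1 had 17 reads. Dopamine libraries held 1.51, 0.524 and 1.06 CPM, and dopamine + inhibitor libraries 0.932, 0.775 and 0.961 CPM.

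NEUROD4, a bHLH factor downstream of the neurogenins, had 8.99, 15.3 and 23.1 CPM in cocaine organoids, against 5.08, 8.02 and 6.79 CPM in control organoids. With the inhibitor the values were 21.5, 7.26 and 13.3 CPM with cocaine, against 4.42, 4.96 and 5.48 CPM in controls. All cocaine values lay above all values of the matched controls in both comparisons. With dopamine NEUROD4 stayed at 7.75, 6.77 and 6.35 CPM, within the control range.

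NHLH1, a bHLH factor of newly formed neurons, had 32.6, 52.2 and 76.4 CPM in cocaine organoids, against 27.0, 28.9 and 31.9 CPM in control organoids. With the inhibitor it had 60.5, 43.3 and 47.7 CPM with cocaine, against 29.3, 17.9 and 33.7 CPM in controls. The groups did not overlap in either comparison, although cocaine library 1, at 32.6 CPM, lay close to the highest control, at 31.9 CPM. NEUROD1, which drives neuronal differentiation after the neurogenins, averaged 22.9 ± 4.83 CPM with cocaine and 18.9 ± 1.39 CPM in control (SD, n = 3 each), which overlapped. With the inhibitor NEUROD1 averaged 27.6 ± 5.16 CPM with cocaine and 16.2 ± 2.96 CPM in controls (SD, n = 3 each), without overlap.

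INSM1, a zinc-finger factor needed in mouse cortex to generate basal progenitors, had 47.2, 61.8 and 85.8 CPM in cocaine organoids, against 32.3, 41.4 and 34.1 CPM in control organoids. With the inhibitor it had 92.2, 37.0 and 64.1 CPM with cocaine, against 35.2, 28.6 and 34.0 CPM in controls. Neither comparison overlapped, and cocaine + inhibitor library 2 again lay closest to its controls.

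HES6, a bHLH protein that opposes HES1, differed little between groups. It averaged 109 ± 13.1 CPM with cocaine and 98.5 ± 5.03 CPM in control, and 102 ± 11.5 CPM with cocaine and inhibitor against 92.1 ± 15.1 CPM with the inhibitor alone (SD, n = 3 each). DLL1 averaged 83.8 ± 6.07 CPM with cocaine and 73.3 ± 7.18 CPM in control, and 79.4 ± 9.35 against 63.8 ± 6.42 CPM in the same pair with inhibitor (SD, n = 3 each). Ranges of both genes overlapped in both comparisons. EOMES was 0.674, 0.598 and 0.779 CPM with cocaine, against 0.338, 0.505 and 0.578 CPM in control, values that rest on 9 to 19 reads per library, where a difference was not detectable by the test.

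**Figure D1:**
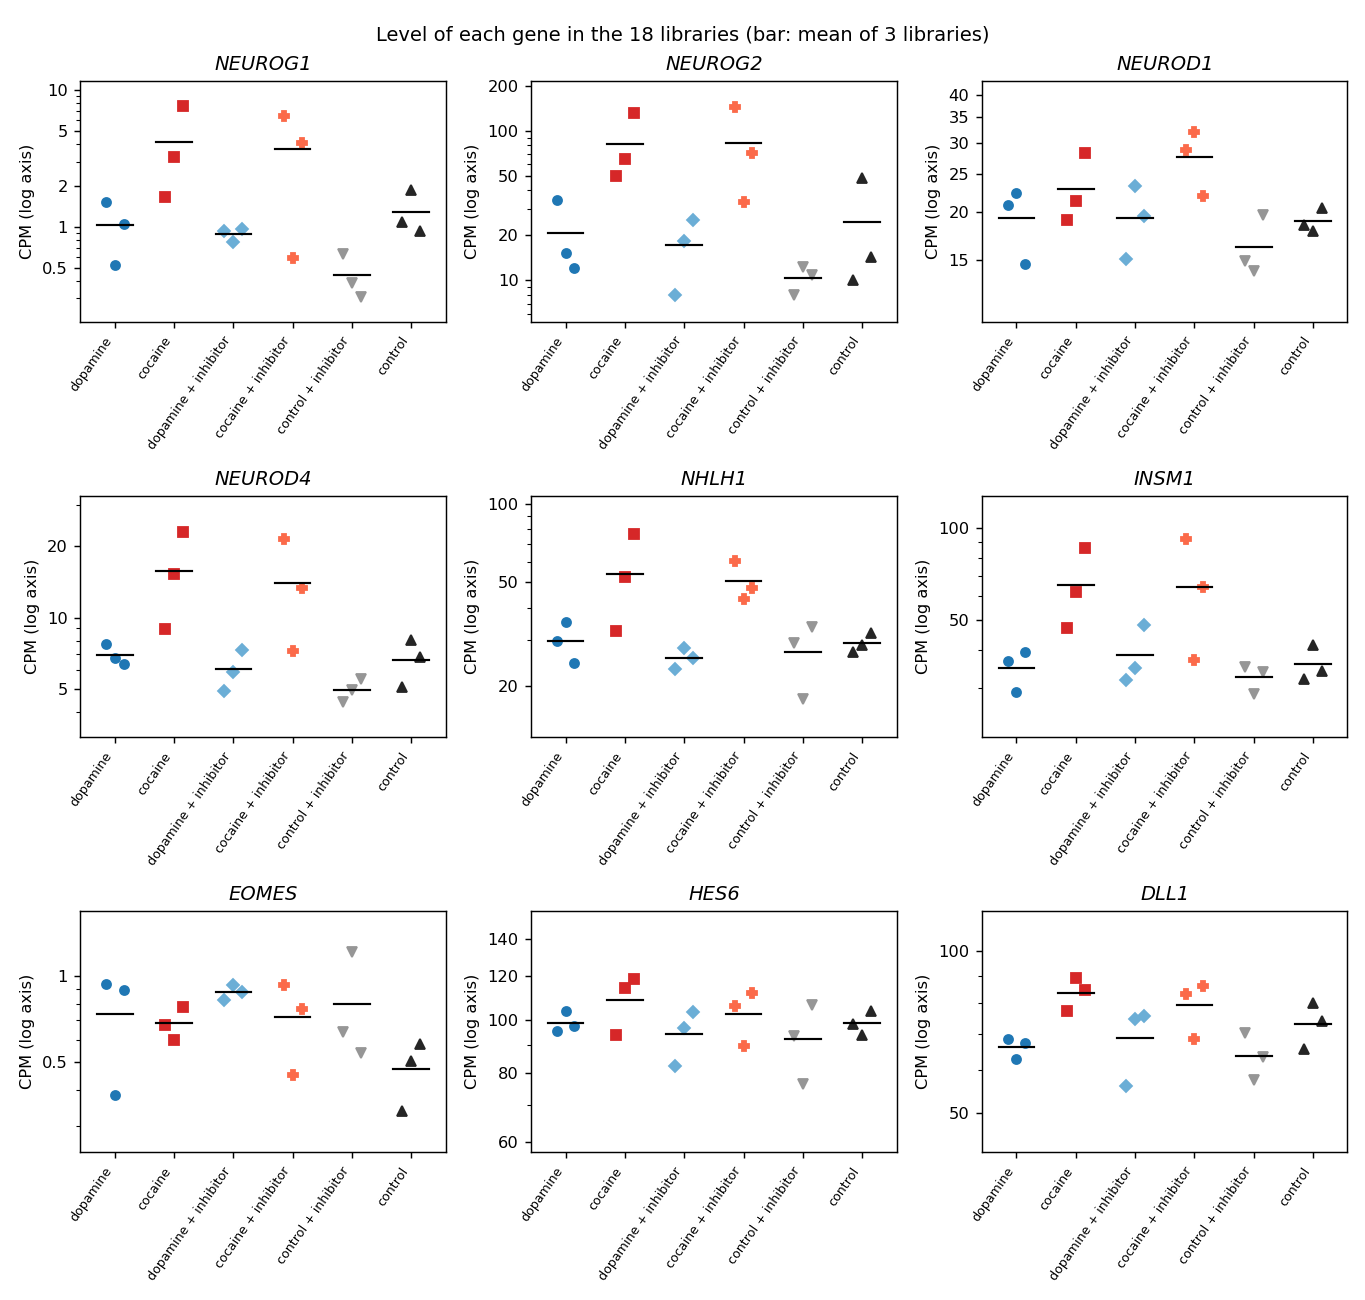
Level of each of the 9 genes in CPM (log axes that differ between panels) for the 3 libraries of each treatment group, with a bar at the group mean. NEUROG1, NEUROG2, NEUROD4, NHLH1 and INSM1 reach their highest values in cocaine library 3 or cocaine + inhibitor library 1, while HES6 stays between 76.4 and 118 CPM and DLL1 between 56.1 and 89.3 CPM.

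In cocaine against control, all 9 genes had a positive fold change, and the values ran from a log2 of 0.14 for HES6 to 1.74 for NEUROG2, with a median of 0.85. The median of all genes was 0.01. Fitted log2 fold changes were 1.74 (SE 0.69) for NEUROG2, 1.67 (SE 0.68) for NEUROG1 and 1.25 (SE 0.36) for NEUROD4. They were 0.87 (SE 0.28) for NHLH1 and 0.85 (SE 0.30) for INSM1. In bulk RNA, more cells expressing a gene and more of its RNA per cell cannot be told apart.

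None of the 9 passed edgeR's quasi-likelihood test in this comparison after Benjamini-Hochberg adjustment over all genes (0 of 9, where 4.33% of genes were called). The closest were NEUROD4 at an adjusted p of 0.0650, NHLH1 at 0.0902 and INSM1 at 0.113, with NEUROG2 at 0.158 and NEUROG1 at 0.162. At an unadjusted p under 0.05 the count was 5 of 9, against 23.1% of all genes. Of the 9, 5 (NEUROG2, NEUROD4, NHLH1, INSM1 and EOMES) were higher in every cocaine library than in every control library, which held for 16.0% of genes tested. DESeq2 called 3, namely NEUROD4 (adjusted p = 0.0169), NHLH1 (0.0247) and INSM1 (0.0421), where it called 1648 genes in all, 10.1% of those it gave an adjusted p, while limma-voom called 0. NEUROG2's log2 fold change was 2.74 without control library 2 and 1.23 without cocaine library 3, and NEUROG1's was 0.90 without cocaine library 3.

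With the inhibitor in both arms, cocaine against control + inhibitor gave larger neurogenin values. The log2 fold change was 2.99 (SE 0.75) for NEUROG2, a 7.94-fold difference, and 3.03 (SE 0.78) for NEUROG1, an 8.16-fold difference. NEUROD4 stood at 1.49 (SE 0.37), INSM1 at 0.98 (SE 0.30), NHLH1 at 0.90 (SE 0.28) and NEUROD1 at 0.77 (SE 0.21). DLL1 was at 0.32 (SE 0.11), HES6 at 0.15 (SE 0.12) and EOMES at -0.16 (SE 0.37). The median of the 9 was 0.90 and that of all genes was 0.00.

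By edgeR's test 0 of the 9 passed in this comparison, where 4 of 18913 genes were called (0.0211%). NEUROG1, NEUROG2 and NEUROD4 each had an adjusted p of 0.143 by edgeR, and 7 of 9 members had an unadjusted p under 0.05, against 16.6% of all genes. NEUROG2, NEUROD1, NEUROD4, NHLH1 and INSM1 were higher in each cocaine library than in each control, 5 of 9 members against 7.89% of genes tested. DESeq2 called 5, with adjusted p of 0.0092 for NEUROG2, 0.0120 for NEUROG1, 0.0153 for NEUROD1, 0.0165 for NEUROD4 and 0.0481 for INSM1, where it called 313 genes in all (1.92%). One library decided the edgeR result. Without cocaine + inhibitor library 2, edgeR called 1276 genes (6.65%), and 5 members passed, NEUROG1 (adjusted p = 0.00944), NEUROD4 (0.0124), INSM1 (0.0216), NEUROG2 (0.0280) and DLL1 (0.0465). Without cocaine + inhibitor library 1 the log2 fold changes were 2.40 for NEUROG1, 2.34 for NEUROG2, 1.06 for NEUROD4 and 0.64 for INSM1, none past the threshold.

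**Figure D2:**
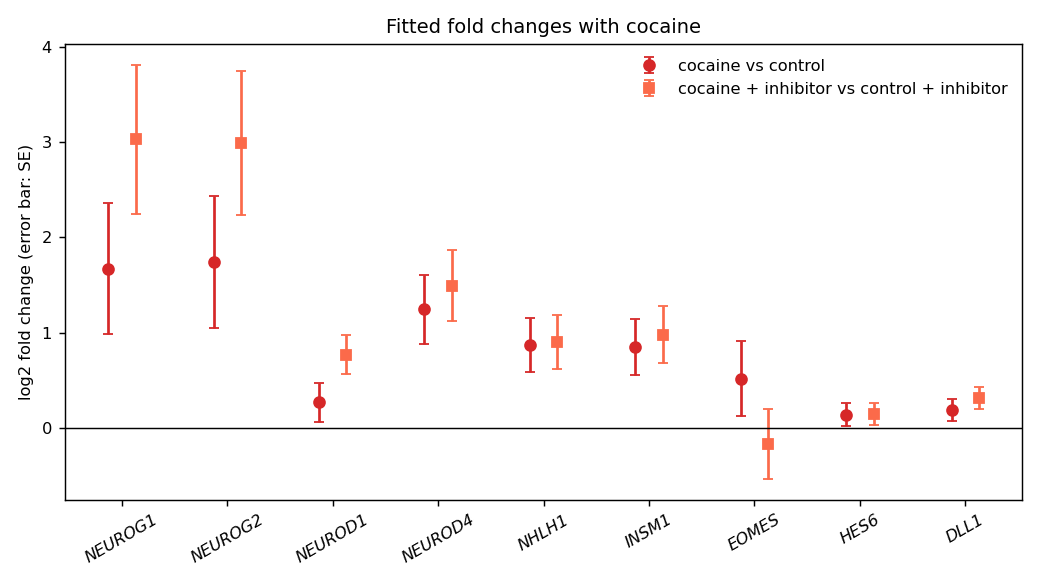
Fitted log2 fold change (vertical axis, edgeR, bars of 1 SE) of each gene for cocaine vs control (circles) and cocaine + inhibitor vs control + inhibitor (squares). NEUROG1 and NEUROG2 lie highest in both, at 1.67 and 1.74 without the inhibitor and 3.03 and 2.99 with it, and their error bars are the widest.

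In the authors' deposited table for cocaine, NEUROG2 had a log2 fold change of 1.75 with a false discovery rate (FDR) of 0.000418. That deposited table also held NEUROG1 at 1.68 (FDR 0.002) and NEUROD4 at 1.25 (FDR 2.42e-06), 3 of its 231 genes. The authors' deposited table for cocaine with inhibitor held NEUROG1 at 3.04 (FDR 2.93e-05), NEUROG2 at 2.99 (FDR 3.21e-14) and NEUROD4 at 1.49 (FDR 0.000155) among 72 genes. Both tables stop at a log2 size of 1 and an FDR of 0.05, so INSM1 and NHLH1, below 1 here, could not have been listed. The fold changes lie close to those fitted here (1.74, 1.67 and 1.25 without the inhibitor), while the deposited FDR values are far lower than the adjusted p-values of edgeR.

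**Figure D3:**
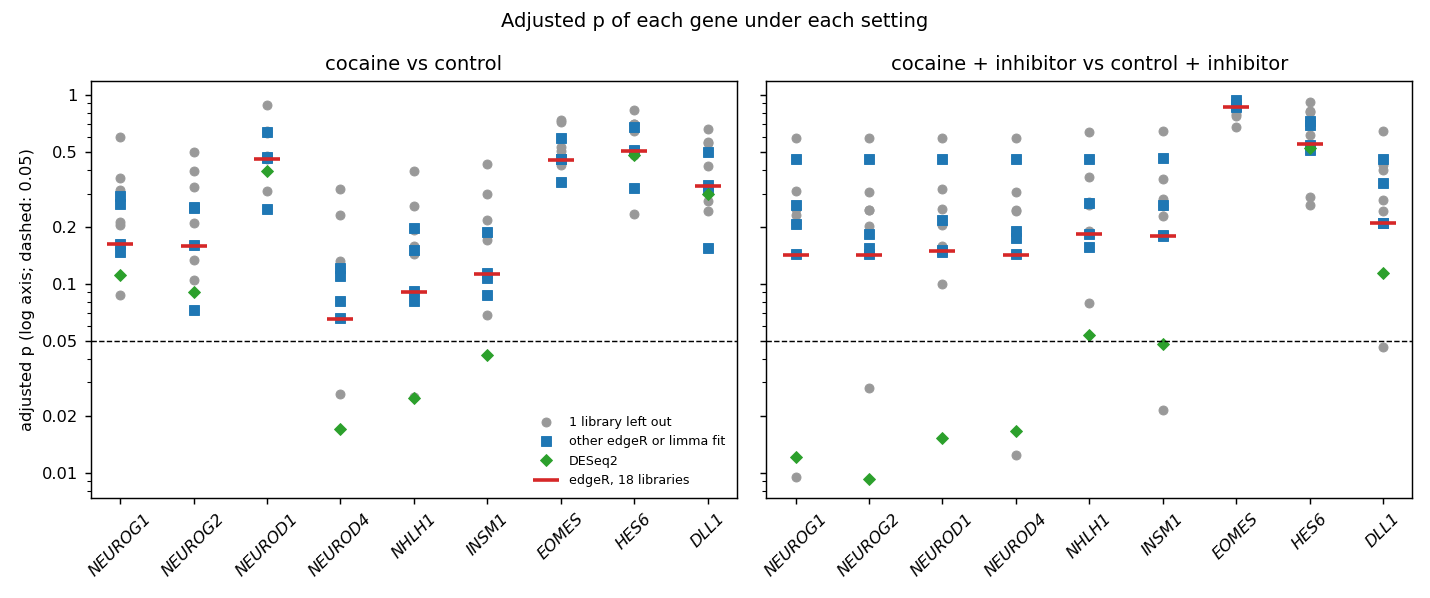
Adjusted p (log axis, dashed line at 0.05) of each gene in both cocaine comparisons, for edgeR with all 18 libraries (red bars), other edgeR or limma fits (squares), DESeq2 (diamonds, none for EOMES) and fits without 1 library (grey circles). NEUROD4 reaches 0.0169 with DESeq2 and 0.0650 with edgeR in cocaine vs control, and the grey circles in the other panel spread from 0.00944 to 0.588 for NEUROG1.

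No member passed the test with dopamine. In dopamine against control the 9 log2 fold changes ran from -0.33 (NEUROG1) to 0.63 (EOMES), with a median of 0.00. Groups of all 9 members overlapped, while 12.2% of genes were higher and 11.8% lower without overlap. Neither edgeR nor DESeq2 called a member, where edgeR called 133 genes or 0.703%. At an unadjusted p under 0.05 by edgeR the count was 0 of 9, against 14.1% of all genes. NEUROG2's value of -0.25 (SE 0.71) had the opposite sign, 0.75, without control library 2, the 1 control library with high NEUROG2. With the inhibitor in both arms the range was -0.07 to 0.98. There edgeR again called 0 of 9, where it called 0.00529% of all genes. None of the 9 had an unadjusted p under 0.05 by edgeR, against 5.58% of all genes, and DESeq2 called 0 members. Of the 9, 1 did not overlap there, NEUROG1, with at least 0.775 CPM with dopamine and at most 0.637 CPM in controls, and 5.81% of genes were higher without overlap.

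Set directly against dopamine, cocaine had log2 fold changes of 2.01 (SE 0.70) for NEUROG1, 1.99 (SE 0.70) for NEUROG2 and 1.18 (SE 0.36) for NEUROD4. INSM1 stood at 0.89 (SE 0.30), NHLH1 at 0.85 (SE 0.28) and DLL1 at 0.34 (SE 0.11). By edgeR 0 members and 0 genes in all were called (0%), and DESeq2 called 72 genes and 0 members. The lowest adjusted p by edgeR was 0.323, for NEUROD4, and 6 of 9 members had an unadjusted p under 0.05, against 11.8% of all genes. The cocaine libraries here are those compared with control above.

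Neurogenin values with the inhibitor alone were lower than in control, without passing the test. NEUROG1 averaged 0.445 ± 0.171 CPM in control + inhibitor and 1.29 ± 0.490 CPM in control (SD, n = 3 each), a log2 fold change of -1.53 (SE 0.83). It was the 1 member of 9 whose groups did not overlap, where 5.52% of genes were lower without overlap. NEUROG2 averaged 10.4 ± 2.23 CPM in control + inhibitor and 24.4 ± 21.1 CPM in control (SD, n = 3 each), a log2 fold change of -1.25 (SE 0.75). Neither passed edgeR's test (adjusted p = 0.898 and 0.924). Here edgeR called 0 genes (0%), 1081 genes and 0 members had an unadjusted p under 0.05, and DESeq2 called 4 genes and 0 members. The NEUROG2 value shrank to -0.25 without control library 2.

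Whether the inhibitor changed the cocaine difference was tested with an interaction term. It was 1.36 (SE 1.05) on the log2 scale for NEUROG1 and 1.25 (SE 1.00) for NEUROG2, with adjusted p of 0.935 and 0.935 by edgeR. These values moved with single libraries, to 0.25 for NEUROG2 without control library 2 and 0.60 without cocaine + inhibitor library 1, and for NEUROG1 to 0.72 without that same cocaine + inhibitor library and 2.12 without cocaine library 3. For NEUROD4 it was 0.25 (SE 0.51), for NHLH1 0.03 (SE 0.39) and for INSM1 0.13 (SE 0.42). No gene was called for this term by edgeR (0%; 995 genes and 0 members at an unadjusted p under 0.05), while DESeq2 called 1 gene and 0 members. Cocaine with inhibitor against cocaine gave values between -0.17 (NEUROD4) and 0.27 (NEUROD1). NEUROG2 stood at 0.00 (SE 0.66), an interval wide enough to hold sizeable differences in either direction. There too edgeR called 0 genes (0%; 608 genes and 0 members at an unadjusted p under 0.05) and DESeq2 called 0 members. Over all 6 groups together, the F-test by edgeR called 264 genes (1.40%) and 0 members, with NEUROD4 lowest at an adjusted p of 0.0609 and 7 of 9 at an unadjusted p under 0.05, against 20.4% of all genes. DESeq2 called 7 of 9 there, and 2076 genes in all (13.2%).

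The neurogenins were also among the genes that varied most between libraries of 1 group. The within-group SD of log2 level was 0.93 for NEUROG1 and 0.87 for NEUROG2, against a median of 0.14 over all genes tested, and 99.1% and 98.8% of genes varied less. It was 0.47 for NEUROD4, 0.37 for INSM1 and 0.36 for NHLH1, and 0.16 for HES6 and DLL1. From the lowest to the highest library NEUROG1 differed 24.7-fold and NEUROG2 18.1-fold, while HES6 differed 1.55-fold and DLL1 1.59-fold.

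NEUROG1, NEUROG2, NEUROD4 and INSM1 moved together across libraries, and their deviations from group means had r from 0.67 to 0.90. NEUROG2 and NEUROD4 had the highest rank correlation of the 36 pairs, with Pearson's r = 0.95 and Spearman's rho = 0.96 over 18 libraries on the log2 scale, and r = 0.92 without the 2 libraries farthest in NEUROG2. For deviations from group means their r was 0.83. NEUROD4 and INSM1 had r = 0.95 and rho = 0.86 (0.90 for deviations), and NEUROG1 and INSM1 r = 0.92 and rho = 0.82 (0.89 for deviations). NEUROG1 and NEUROG2 themselves had r = 0.86 and rho = 0.75. NEUROD1 did not follow them inside groups, with r of deviations of -0.13 with NEUROG1, 0.061 with INSM1 and 0.29 with both NEUROG2 and NEUROD4, against 0.68 with NHLH1. EOMES had r = 0.16 and rho = 0.18 with NEUROG2, and negative r with NEUROD1 (-0.19), NHLH1 (-0.15) and HES6 (-0.22). These are descriptions over 18 libraries that share groups, depth range and composition.

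**Figure D4:**
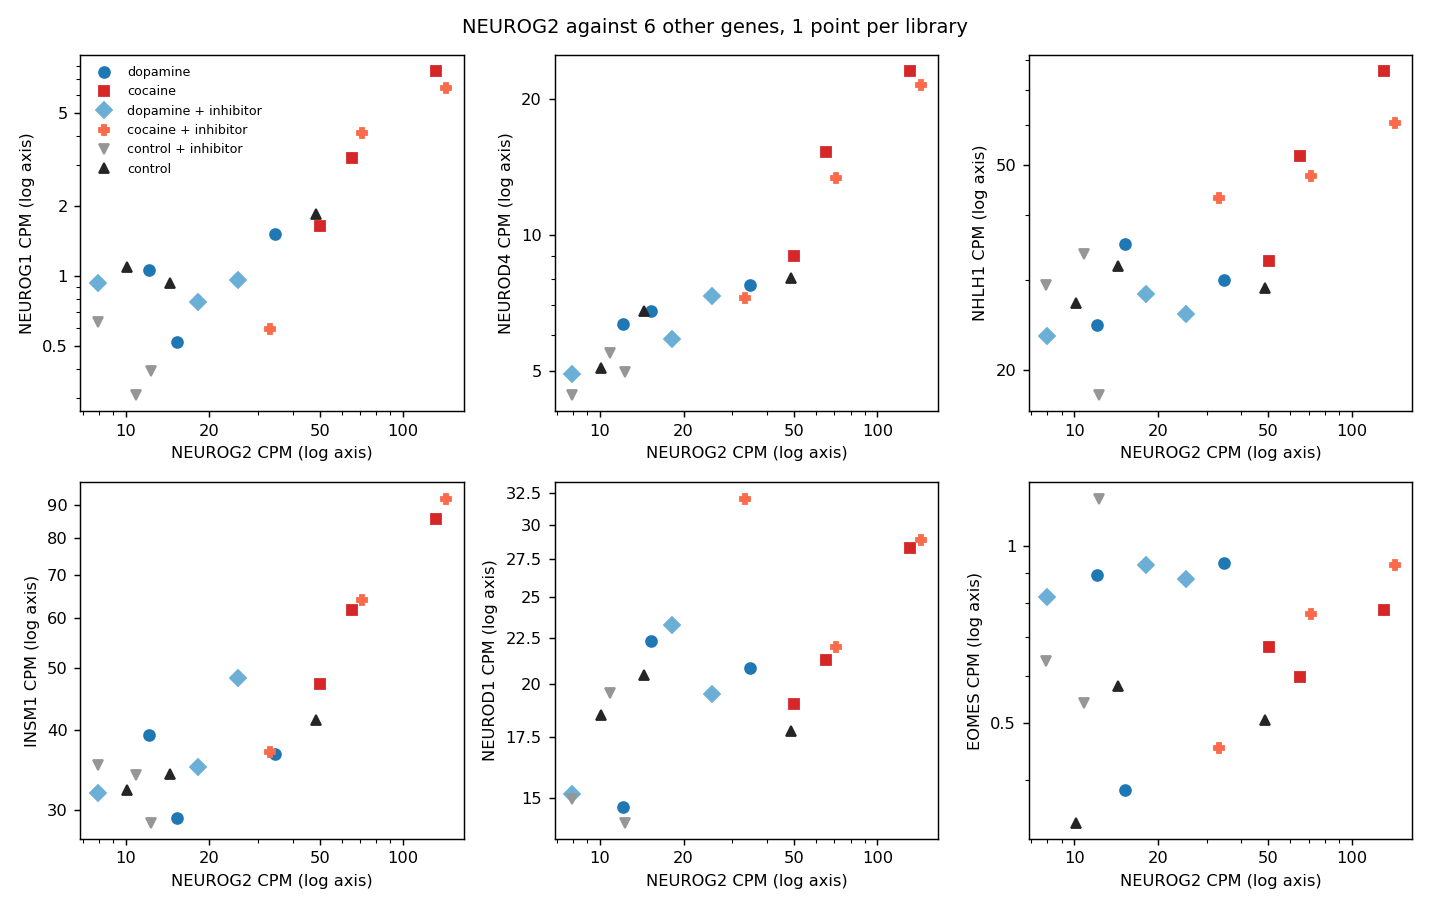
CPM of 6 genes (vertical, log axes) against NEUROG2 CPM (horizontal, log axis), 1 point per library and 1 symbol per treatment group. NEUROD4 follows NEUROG2 closely (r = 0.95), including control library 2 and cocaine + inhibitor library 2, whereas EOMES does not (r = 0.16).

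Of 12611 other genes at a mean of at least 5 CPM, 5 followed the mean standardised level of the members most closely over the 18 libraries. They were PHF21B (r = 0.98, rho = 0.95), HNRNPA1 (r = 0.98, rho = 0.97), EFS (r = 0.97, rho = 0.93), SZRD1 (r = 0.96, rho = 0.90) and RRM2 (r = 0.96, rho = 0.92). HNRNPA1 encodes an RNA-binding splicing factor, and RRM2 a subunit of the ribonucleotide reductase used in DNA synthesis. EFS ran from 11.5 to 53.9 CPM and RRM2 from 7.53 to 32.2 CPM, against 1156 to 1554 CPM for HNRNPA1. For deviations from group means the closest were TFDP2 (r = 0.97), NUP205 (r = 0.97), BIRC5 (r = 0.97), SMARCC1 (r = 0.96) and HNRNPA1 (r = 0.96). TFDP2 is a partner of E2F factors in the cell cycle and BIRC5, survivin, acts in mitosis.

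In the wider pathway, few genes passed the test in cocaine against control, and since 0 genes in all were called without cocaine library 3, control library 1 or control library 2, each call named here is lost without any 1 of these. Among all genes tested, 1.73% rose and 2.59% fell by edgeR in this comparison. Of 11 Notch ligands and receptors other than DLL1, 0 passed edgeR's test and 7 had a positive fold change (median 0.15). The highest of them per length were DNER, a neuronal Notch-related ligand, with 371 to 470 TPM, and NOTCH1, with 41.2 to 77.1 TPM. Of 14 Notch modulators 0 rose and 1 fell, PSEN2, a gamma-secretase subunit, with a log2 fold change of -0.27 (SE 0.07, edgeR adjusted p = 0.0394). NCSTN, another gamma-secretase subunit, at 84.1 to 130 TPM, and RBPJ, the DNA-binding partner of Notch, at 71.0 to 87.3 TPM, had the highest levels of that list.

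All 7 Notch effectors had a positive log2 fold change with cocaine (median 0.21), and 1 rose. It was NRARP, a feedback inhibitor of Notch, with 40.2 ± 4.19 CPM in cocaine organoids and 30.9 ± 2.82 CPM in control organoids (SD, n = 3 each). Its log2 fold change was 0.38 (SE 0.10, edgeR adjusted p = 0.0375), and 6 of 11 alternative settings called it (adjusted p 0.0104 to 0.191). HES4, a HES repressor and the highest of the list at 84.7 to 117 TPM, stood at 0.21 (SE 0.07) with an adjusted p of 0.0896 by edgeR.

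Of 7 E proteins and ID inhibitors, which pair with bHLH factors or block them, 0 passed and 6 were positive (median 0.25). ID4, at 251 to 531 TPM, stood at 0.48 (SE 0.22) and ID2, at 102 to 248 TPM, at -0.01 (SE 0.23). Of 10 other neurogenic bHLH factors 0 passed, with a median of 0.14. NEUROD6, a bHLH factor of cortical projection neurons, stood at -0.02 (SE 0.17).

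Of 21 tested proneural targets and intermediate progenitor markers, 1 rose and 1 fell with cocaine by edgeR, against 1.73% and 2.59% of all genes. Their median log2 fold change was -0.03. RND2, a GTPase that NEUROG2 induces in migrating mouse cortical neurons, had 85.3, 97.9 and 112 CPM in cocaine organoids against 74.6, 76.6 and 75.6 CPM in control organoids. Its log2 fold change was 0.38 (SE 0.10, edgeR adjusted p = 0.0380), and the groups did not overlap. SRRM4, a splicing regulator of neurons, stood at -0.24 (SE 0.06, edgeR adjusted p = 0.0289).

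IGFBPL1, the highest of that list per length at 170 to 895 TPM, had 395, 512 and 879 CPM in cocaine organoids against 195, 377 and 238 CPM in control organoids. Its log2 fold change of 1.14 (SE 0.48) did not pass (edgeR adjusted p = 0.177), although the groups did not overlap. KDM1A, a histone demethylase that works with INSM1 and the second highest at 235 to 274 TPM, stood at 0.07 (SE 0.06). MFNG, a Notch-modifying glycosyltransferase singled out after its values were seen, had 5.06, 7.26 and 12.5 CPM with cocaine against 2.93, 5.29 and 4.44 CPM in control, which overlapped.

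With the inhibitor in both arms, 0 genes of these 6 lists passed edgeR's test for cocaine. The medians were 0.09 for the Notch ligands and receptors, 0.08 for the modulators and 0.04 for the effectors. They were -0.06 for the E proteins and ID inhibitors, -0.07 for the other bHLH factors and -0.01 for the targets. RND2 stood at 0.29 (SE 0.10), NRARP at 0.22 (SE 0.10) and IGFBPL1 at 1.27 (SE 0.48), none past the threshold.

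Transcripts of dividing cells moved with the neurogenins. The summed level of 12 proliferation genes was 423, 579 and 806 CPM in cocaine organoids, against 327, 371 and 375 CPM in control organoids. With the inhibitor it was 866, 377 and 579 CPM with cocaine, against 364, 278 and 390 CPM in controls. The order of the cocaine libraries was the same as for NEUROG2 in both groups. All 12 had a positive log2 fold change in cocaine against control (median 0.81), and 3 rose by edgeR, where 1.73% of all genes rose. These were HMGB2, a chromatin protein of dividing cells (0.96, SE 0.24, adjusted p = 0.0426), the replication clamp PCNA (0.42, SE 0.10, adjusted p = 0.0319) and the helicase subunit MCM6 (0.32, SE 0.08, adjusted p = 0.0348). With the inhibitor all 12 were again positive (median 0.91) and 0 passed. Over the 18 libraries the summed level had r = 0.86 and rho = 0.81 with NEUROG2 (0.68 for deviations from group means). With NEUROG1 it had r = 0.83 and rho = 0.57 (0.75 for deviations), and r = 0.66 without the 2 libraries farthest in that sum. With NEUROD4 it had r = 0.95 and rho = 0.84 (0.91 for deviations). The part of dividing cells in the neurogenin values was not tested.

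Radial glia transcripts summed to 3320 to 3842 CPM with cocaine and 3128 to 3296 CPM in control, and 1 of 11 rose, the intermediate filament VIM (log2 fold change 0.38, SE 0.10, edgeR adjusted p = 0.0460). NES, another progenitor filament, averaged 779 ± 122 CPM with cocaine and 629 ± 50.8 CPM in control (SD, n = 3 each). Neuronal transcripts went the other way. The 12 pan-neuronal genes summed to 9244 to 10327 CPM with cocaine and 11173 to 11989 CPM in control, 0 of 12 had a positive fold change and 2 fell by edgeR, where 2.59% of all genes fell. They were DCX (-0.31, SE 0.08, adjusted p = 0.0370) and MAPT (-0.42, SE 0.09, adjusted p = 0.0217), both microtubule-binding proteins. STMN2 and TUBB3, the highest of that list, stood at -0.27 (SE 0.11) and -0.03 (SE 0.09). With the inhibitor the pan-neuronal sums overlapped, at 9640 to 10682 CPM with cocaine and 10409 to 12462 CPM in controls. Radial glia sums overlapped as well, at 3485 to 3759 CPM with cocaine and 2960 to 3538 CPM in controls. There 2 of 12 pan-neuronal and 7 of 11 radial glia genes were positive, and 0 of either list passed.

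The 11 ventral forebrain and interneuron genes summed to 284 to 412 CPM with cocaine and 510 to 589 CPM in control, with no overlap. Of the 10 tested, 1 was positive (median -0.71) and 3 fell by edgeR, DLX6 (-1.05, SE 0.25, adjusted p = 0.0365), GAD2 (-0.64, SE 0.16, adjusted p = 0.0446) and SLC32A1 (-0.68, SE 0.16, adjusted p = 0.0333). GAD1 stood at -0.58 (SE 0.22). With the inhibitor the sums were 354 to 568 CPM with cocaine and 472 to 599 CPM in controls, and 0 passed. This sum had r = -0.76 and rho = -0.69 with NEUROG2 over the 18 libraries, and r = -0.65 for deviations from group means. Its part in the neurogenin values was not tested.

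**Figure D5:**
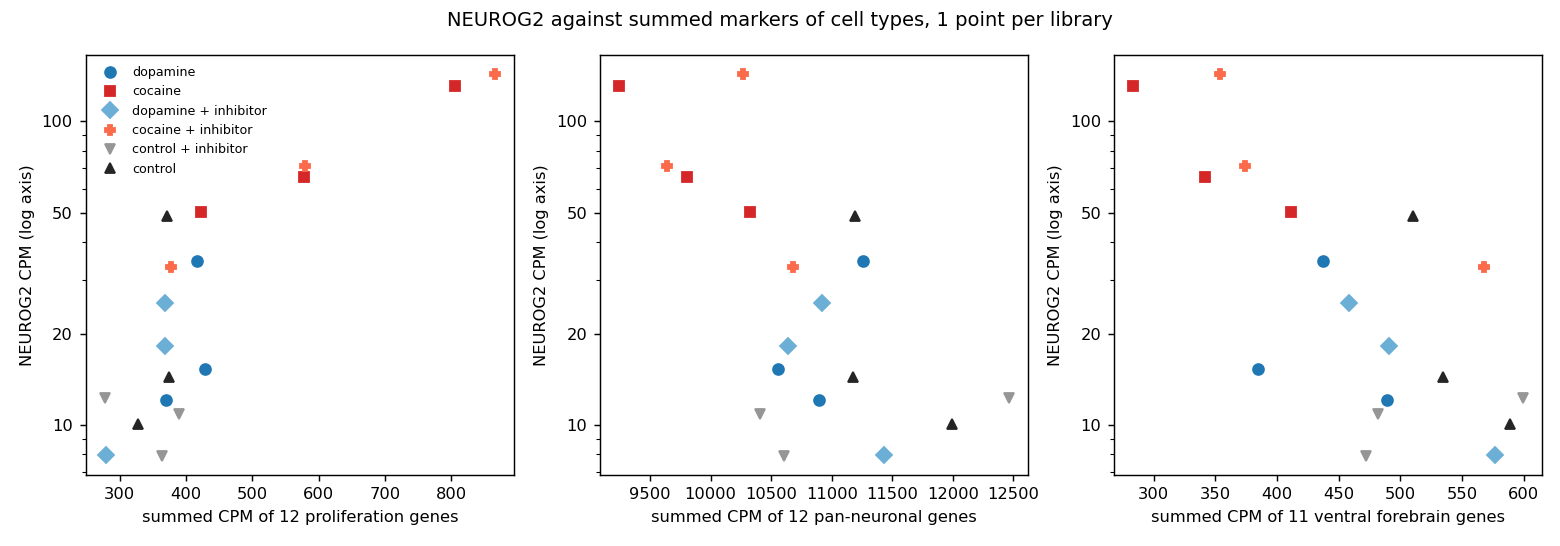
NEUROG2 CPM (vertical, log axis) against the summed CPM of 12 proliferation, 12 pan-neuronal and 11 ventral forebrain genes (horizontal), 1 point per library. Cocaine library 3 and cocaine + inhibitor library 1 combine 131 and 143 CPM of NEUROG2 with 806 and 866 CPM of proliferation transcripts, and NEUROG2 is high where the ventral forebrain sum is low (r = -0.76).

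Markers of other regions and cell types were also read. The dorsal forebrain sum was 82.8 to 98.0 CPM with cocaine and 85.3 to 96.3 CPM in control, and 1 of 9 tested fell, EMX1 (-2.60, SE 0.44, edgeR adjusted p = 0.0194), which was at most 0.4 TPM in any library. Choroid plexus genes summed to 141 to 384 CPM with cocaine and 66.6 to 131 CPM in control (8 of 9 positive, AQP1 rose by 1.42, SE 0.37, edgeR adjusted p = 0.0445), with TTR and OTX2 highest. With the inhibitor they summed to 112 to 236 CPM with cocaine and 91.9 to 265 CPM in controls, with 2 of 9 positive, a median of -0.21 and 0 called. Posterior neural tube genes summed to 160 to 379 CPM with cocaine and 136 to 238 CPM in control, and with the inhibitor to 59.2 to 165 CPM with cocaine and 79.3 to 277 CPM in controls, and their sum had r = -0.06 with NEUROG2. Sensory neuron and placode genes summed to 35.3 to 56.1 CPM with cocaine and 38.5 to 48.9 CPM in control, and retinal genes to 80.6 to 120 CPM and 52.6 to 95.6 CPM, mostly from OTX2, with SIX6 at 0 in all 18 libraries. The endocrine list, in which INSM1 and NEUROD1 act, summed to 220 to 269 CPM with cocaine and 325 to 335 CPM in control. With the inhibitor its sums overlapped, at 251 to 273 CPM with cocaine and 262 to 362 CPM in controls. Midbrain genes summed to 105 to 146 CPM with cocaine and 73.0 to 115.5 CPM in control, and pigment cell genes to 10.6 to 17.4 CPM and 5.05 to 7.55 CPM, with 0 called in either list. In the oligodendrocyte lineage list MBP fell (-0.53, SE 0.15, edgeR adjusted p = 0.0492), among mesenchymal and vascular genes RGS5 rose (0.85, SE 0.20, edgeR adjusted p = 0.0301), and of 5 astrocyte genes 0 passed. With dopamine, OLIG1 (-1.34, SE 0.24, edgeR adjusted p = 0.0141) and the endocrine list's NKX2-2 (-1.13, SE 0.23, edgeR adjusted p = 0.0383) fell, where 0.148% of all genes did. OLIG1 was called in 8 of 11 alternative settings (adjusted p up to 0.118) and NKX2-2 in 4 of 11 (up to 0.245), and both were lost without dopamine library 2, control library 2 or control library 3, and NKX2-2 also without dopamine library 1 or control library 1. What part these cells had in the members' values was not tested.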

How the data were processed

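PolyA RNA of 18 organoid libraries was counted per gene. Raw read counts and TPM values per gene are the authors' deposited values on GRCh38 (hg38), per the submitters' processing notes, and the aligner, the counter and the use of strand are not stated in any source at hand, so reads of overlapping or antisense genes cannot be told apart. Per the file headers, the authors also deposited 5 tables of log2 fold changes with p-values and FDR and a signed fold change (a score). Their comparators were inferred by matching TPM ratios.

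Genes were kept by edgeR's filter with a minimum count of 10, leaving 18913 of 53853. 28 gene names in the table look like dates and were left as they stood. The main test was edgeR 4.0.16 (R 4.3.3) quasi-likelihood over all 6 groups, with TMM factors and Benjamini-Hochberg adjustment over all genes at 0.05. The SE is the absolute log2 fold change divided by the square root of F. Log2 levels used a prior count of 2. Alternatives were DESeq2 1.42.0, limma-voom (limma 3.58.1), RLE factors, no filter, only the groups compared, and leaving out each library. The script was tested on simulated data. Total reads ran from 23789195 to 30327891 per library.

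The members, the 6 pathway lists and the 15 marker lists were chosen with earlier results of these data known. Beside the members, genes named were those that passed the test in a list, the highest per length in a list, and the 5 most alike at a mean of at least 5 CPM.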

Additional observations from a re-analysis of the deposited data

How the results depend on the processing

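With DESeq2 the number of genes called was 489 for dopamine, 1648 for cocaine and 4 for the inhibitor, each against control, 6 for dopamine and 313 for cocaine with the inhibitor in both arms, 34 for dopamine with against without inhibitor, 72 for cocaine against dopamine, 17 and 1 for the dopamine and cocaine interactions, and 2076 over the 6 groups. DESeq2 called 3 members for cocaine, 5 for cocaine with inhibitor in both arms and 7 over the 6 groups, and gave EOMES no adjusted p for cocaine. Fitting only the groups compared called 540 genes for dopamine, 1583 for cocaine, 0 for cocaine with inhibitor in both arms and 3 for dopamine with against without inhibitor. With no filter on low counts the counts were 9 for cocaine with inhibitor in both arms, 3 for dopamine with against without inhibitor and 543 over the 6 groups. Leaving out 1 library at a time, the calls ran from 7 to 100 for dopamine, 0 to 1121 for cocaine (members 0 to 2), 2 to 1276 for cocaine with inhibitor in both arms (members 0 to 5), 0 to 0 for dopamine with inhibitor in both arms, 0 to 1 for dopamine with against without inhibitor, and 33 to 1629 over the 6 groups (members 0 to 4).

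The sign of some uncalled log2 fold changes turned when 1 library was left out. The ranges were -0.38 to 0.27 for EOMES with cocaine and inhibitor against control + inhibitor, -0.70 to 0.025 for NEUROG1 and -0.84 to 0.75 for NEUROG2 with dopamine against control, -0.53 to 0.16 for NEUROG1 and -0.66 to 0.32 for NEUROG2 with dopamine and inhibitor against dopamine, -0.81 to 0.60 for NEUROG1 and -0.65 to 0.51 for NEUROG2 with cocaine and inhibitor against cocaine, and -0.027 to 1.56 for NEUROG2 in the dopamine interaction. Limma-voom gave -0.13 for NEUROG2 with cocaine and inhibitor against cocaine. The cause was not tested. No paired analysis was possible because the labels give no replicate number shared between groups. NEUROG1 rested on 8 to 186 reads per library and EOMES on 9 to 34.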
